A study of Mus musculus with 5 samples.

Results

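The dystrophin-glycoprotein complex ties the actin cytoskeleton of a muscle cell, through its membrane, to the basement membrane outside. Dystrophin binds actin on the inside and dystroglycan at the membrane, dystroglycan binds laminin on the outside, the sarcoglycans stabilise dystroglycan within the membrane, and dystrobrevin and the syntrophins form a signalling scaffold under it. Loss of several of these subunits causes muscular dystrophy with cardiomyopathy, and in cardiomyocytes the complex protects the membrane during contraction. The 9 genes followed here, of 49671 in the deposited count table and 14880 with enough counts to be tested, are *Dmd*, *Utrn*, *Dag1*, *Sgca*, *Sgcb*, *Sgcd*, *Lama2*, *Dtna* and *Sntb1*. They were chosen by name for their place in the complex, and all 9 were tested.

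Whole hearts of C57BL6/J mice were taken at postnatal day 2 and sequenced as polyA RNA in 5 pools. The 3 CharmeWT pools held 9 wild-type hearts each, and the 2 CharmeKO pools held 3 hearts each from littermates with a polyadenylation signal inserted into the locus of the lncRNA *Charme*. It is a germline allele that singles out no cell type, and the effect of genotype and of the number of hearts in a pool cannot be told apart. The labels call pools of a genotype separate samples, and the p-values measure the spread between such pools.

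Counts on genes ranged from 16721055 to 21646378 a pool. *Charme* itself had 810, 183 and 276 counts in CharmeWT pools 1 to 3 and 57 and 79 in the CharmeKO pools, a log2 fold change of -2.49 (adjusted p = 0.0763). Any transcript made ahead of the inserted signal is part of these counts. Cardiomyocyte markers, summed, were at 43520 to 52890 CPM (counts scaled to library size) in CharmeWT pools and 52400 and 44860 in CharmeKO pools 1 and 2. The sum joins markers that went different ways. Of the 10, 2 had both CharmeKO pools below every CharmeWT pool, against 18.2% of all genes tested. Another 2 had both above, against 17.8%, and none was called. Both CharmeKO pools stood apart in other respects. In CharmeKO pool 1, genes with AT-rich transcripts were higher and genes with GC-rich transcripts lower, from a median of 0.63 (log2 CPM minus the CharmeWT mean) for genes under 42% GC to -0.55 for those over 57% GC. CharmeKO pool 2 spanned 0.08 to -0.02 over the same classes. Salivary gland markers summed to at most 3.9 CPM in CharmeWT pools, 337 in CharmeKO pool 1 and 25380 in CharmeKO pool 2. Skeletal muscle markers, a tissue that also makes this complex, summed to 10.4 to 13.6 CPM in CharmeWT pools and 29.8 and 63.3 in the CharmeKO pools, with both CharmeKO pools above every CharmeWT pool for the 7 of 15 that could be tested and *Myf5*, *Pax7* and *Myh4* at 0 in all 5 pools. Erythroid markers summed to 870 to 1254 CPM in CharmeWT pools and 2284 and 1619 in the CharmeKO pools. The nuclear RNA *Xist*, picked after its values were seen, was at 18.7 to 48.2 CPM in CharmeWT pools and 335 and 62.8 in the CharmeKO pools, and *Malat1*, picked likewise, at 41.5 to 121 CPM and 269 and 74.9. Of others picked likewise, *Kcnq1ot1* was at 1.16 to 2.38 CPM and 5.81 and 2.82. *Neat1*, at 5.38 to 18.2 CPM and 24.4 and 36.9, and *Meg3*, at 14.5 to 40.5 CPM and 66.59 and 87.95, were higher in CharmeKO pool 2 than in CharmeKO pool 1. The part of these differences in the results below was not tested, except where values with a correction or without a pool are given. The paper states that males and females were picked at random. The sex of the hearts in each pool was not examined, and its part in the *Xist* values was not tested.

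In CharmeWT hearts the 9 genes spanned a wide range of levels, from *Dag1* at 55.5 ± 5.10 FPKM (fragments per kilobase of gene length, scaled to library size; mean ± SD, n = 3) to *Sgcd* at 0.797 ± 0.0870. The order was *Dag1*, *Sgca*, *Sgcb*, *Sntb1*, *Lama2*, *Utrn*, *Dtna*, *Dmd* and *Sgcd*. Neighbours in this order did not overlap between CharmeWT pools, except *Sntb1* (7.65 to 10.1 FPKM) and *Lama2* (6.995 to 8.629 FPKM). In CharmeKO hearts, by mean FPKM, the order differed only in that *Dtna* stood above *Utrn*. An FPKM value divides by the gene length that the authors used, and levels of different genes depend on it. With all exons annotated in GENCODE M21 as the length, a choice made after seeing the data, *Utrn* (17108 for 12382 bases), *Dtna* (16930 for 6587 bases) and *Sntb1* (5324 for 2869 bases) had lower levels. The order from the fourth place was then *Lama2*, *Sntb1*, *Utrn*, *Dmd*, *Dtna* and *Sgcd*. For *Dmd* the length is 23.8 kb where the longest transcript has 14910 bases, so its level is a low estimate.

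**Figure D1:**
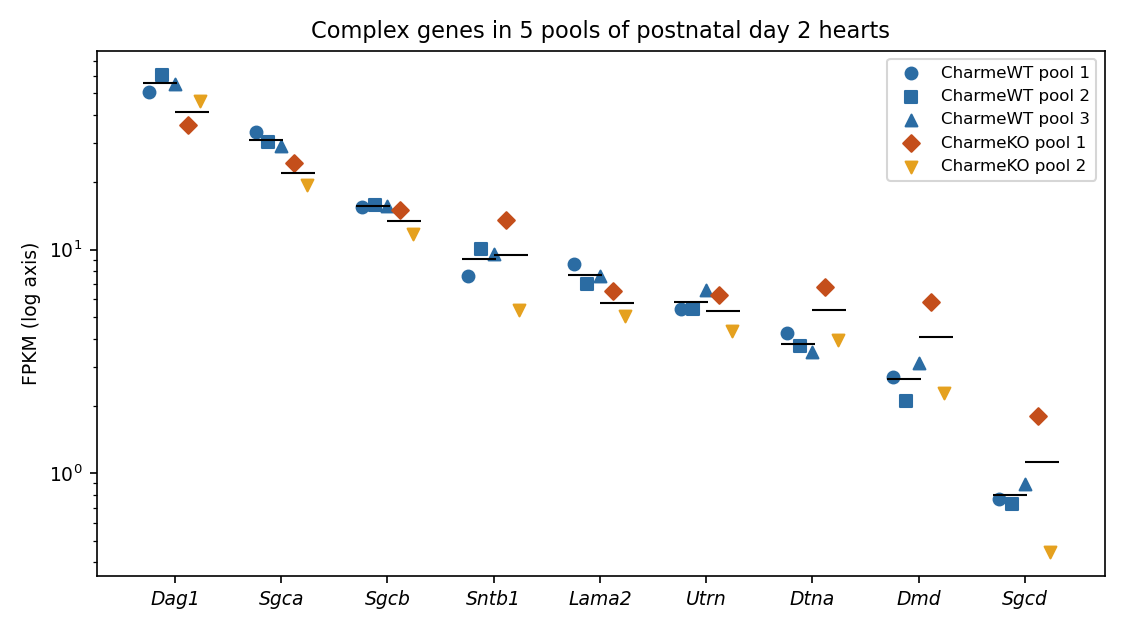
FPKM (log axis) of the 9 complex genes in each of the 5 pools, ordered by mean CharmeWT level, with a horizontal line at the mean of each genotype. *Dag1*, *Sgca*, *Sgcb* and *Lama2* have both CharmeKO pools below every CharmeWT pool, and in *Dmd*, *Sgcd* and *Sntb1* the CharmeKO pools lie 2.54-, 4.07- and 2.53-fold apart.

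None of the 9 genes passed the test between genotypes. With Benjamini-Hochberg adjustment of edgeR's quasi-likelihood p-values, 0 of 9 had an adjusted p under 0.1, where 2.05% of all genes tested were called. The count was also 0 of 9 by edgeR's likelihood ratio test, which called 6.32% of all genes, and by DESeq2, which called 7.57%. At an unadjusted p under 0.05, 1 of 9 passed (*Sgca*), against 18.6% of all genes. This count was 4 of 9 with the replicate number as a block (*Dmd*, *Dag1*, *Sgca* and *Lama2*), and 0 with any CharmeWT pool left out. The share of all genes at this threshold was not computed for those fits, so their counts cannot be set against it. Both CharmeKO pools were below every CharmeWT pool for 4 of 9 genes, *Dag1*, *Sgca*, *Sgcb* and *Lama2*, against 18.2% of all genes. None of the 9 had both CharmeKO pools above every CharmeWT pool, against 17.8% of all genes. The median log2 fold change, CharmeKO over CharmeWT, was -0.13 over the 9 genes and 0.02 over all genes tested. In bulk hearts, fewer cells of a type and less RNA per cell cannot be told apart.

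*Dag1* encodes dystroglycan, the laminin receptor at the centre of the complex, and lies on the minus strand of chromosome 9 (ENSMUSG00000039952, GRCm38, 108204634 to 108263958). It was at 50.6, 60.7 and 55.1 FPKM in CharmeWT pools 1 to 3 and at 36.3 and 46.5 FPKM in CharmeKO pools 1 and 2. Both CharmeKO pools were below all CharmeWT pools, without overlap. The log2 fold change was -0.42 ± 0.19 (SE), with an adjusted p of 0.273 by edgeR's quasi-likelihood test. After each pool's trends on gene length and on transcript GC content, here 54.2%, had been taken out, a step called the GC correction below, it was -0.22 (adjusted p = 0.446).

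*Lama2* encodes the alpha chain of laminin-211, the main laminin around muscle fibres and a ligand of dystroglycan (ENSMUSG00000019899, chromosome 10, minus strand, 26980036 to 27619758). Its level was 8.629, 6.995 and 7.607 FPKM in the CharmeWT pools and 6.51 and 5.07 FPKM in the CharmeKO pools, again without overlap. This gave a log2 fold change of -0.42 ± 0.19 (adjusted p = 0.270), and of -0.46 after the GC correction (adjusted p = 0.180). Fibroblasts also make this chain, and fibroblast markers summed to 4152 to 4998 CPM in CharmeWT pools and to 4845 and 5968 CPM in CharmeKO pools, with 9 of 10 at a log2 fold change above 0 and none called. Their part in the *Lama2* values was not tested.

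The sarcoglycans sit in the membrane beside dystroglycan. *Sgca*, alpha-sarcoglycan, is made mainly in striated muscle (ENSMUSG00000001508, chromosome 11, minus strand, 94962791 to 94976327). It was at 33.6, 30.4 and 29.0 FPKM in CharmeWT pools and at 24.5 and 19.4 FPKM in CharmeKO pools. Every CharmeKO value was lower than every CharmeWT value. It had a log2 fold change of -0.50 ± 0.19, with an unadjusted p of 0.0253 and an adjusted p of 0.216 by edgeR's quasi-likelihood test. After the GC correction the log2 fold change was -0.42. By the same test the unadjusted p was then 0.0793, no longer under 0.05, and the adjusted p 0.338.

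*Sgcb*, beta-sarcoglycan, forms the core of the sarcoglycan assembly (ENSMUSG00000029156, chromosome 5, minus strand, 73632749 to 73647790). The CharmeWT pools were close together at 15.5, 15.8 and 15.7 FPKM, a coefficient of variation of 1.19%, smaller than in 99.4% of the genes tested. CharmeKO pool 1 lay just below them at 15.1 FPKM and CharmeKO pool 2 further below at 11.8 FPKM. Between genotypes the log2 fold change was -0.22 ± 0.18 (adjusted p = 0.522). The GC correction moved it to -0.50 (adjusted p = 0.132), where CharmeKO pool 1 stood at -0.45 from the CharmeWT mean and, before it, at -0.05.

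*Sgcd*, delta-sarcoglycan, the partner of beta-sarcoglycan in the core, was the least abundant of the 9 (ENSMUSG00000020354, chromosome 11, minus strand, 46896253 to 47988969). Its counts were 131, 106 and 146 in CharmeWT pools and 211 and 82 in CharmeKO pools. These made 0.771, 0.727 and 0.894 FPKM against 1.81 and 0.445 FPKM. CharmeKO pool 1 was above and CharmeKO pool 2 below every CharmeWT pool, a 4.07-fold gap that 1.96% of the genes tested exceeded. The log2 fold change of 0.47 ± 0.47 (adjusted p = 0.611) averages these opposite values, and it was 0.14 after the GC correction (adjusted p = 0.888).

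Dystrophin, the actin-binding protein lost in Duchenne muscular dystrophy, is encoded by *Dmd* over 2257.3 kb of the plus strand of chromosome X (ENSMUSG00000045103, 82948870 to 85206141). Its level was 2.69, 2.11 and 3.10 FPKM in CharmeWT pools and 5.82 and 2.29 FPKM in CharmeKO pools. CharmeKO pool 1 stood above every CharmeWT pool and CharmeKO pool 2 lay within their range. Its log2 fold change was 0.62 ± 0.33 (adjusted p = 0.340), and 0.37 after the GC correction (adjusted p = 0.385). The 5 protein-coding genes outside the list whose profile over the 5 pools was most like that of *Dmd*, of 13415 searched, were *Nbeal1*, *Dmxl1*, *Phip*, *mt-Nd5* and *Ranbp2*, with a root mean square difference of 0.04 to 0.08 in log2 CPM. The GC content of their transcripts ranged from 37.1% (*mt-Nd5*) to 40.2% (*Ranbp2*).

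The count of *Dmd* merges transcripts from several starts. The muscle dystrophin of full length begins at the 5′ end of the gene, and short forms that lack the actin-binding part, made in many tissues, begin 2.1 Mb downstream. The windows of 250 bases before both starts are shown, from RefSeq on GRCm38.p6, plus strand, because the counts cannot separate them. Capitals in these windows, and in the others printed here, mark matches on either strand to 6 motifs of muscle or heart factors. The E-box was searched as CANNTG, with N any base. The M-CAT site bound by TEAD factors was searched as CATTCC. The site of the GATA factors was searched as AGATAA and that of the T-box factors as AGGTGT. The CArG box of serum response factor and the MEF2 site, which allow several letters at some positions, were searched by their usual consensus.
Dmd, muscle start, chrX:82948620-82948869: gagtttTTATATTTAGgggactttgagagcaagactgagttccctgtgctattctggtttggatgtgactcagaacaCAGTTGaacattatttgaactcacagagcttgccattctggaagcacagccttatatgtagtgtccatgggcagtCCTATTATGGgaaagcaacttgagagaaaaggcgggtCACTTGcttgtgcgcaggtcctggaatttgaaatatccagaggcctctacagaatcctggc
Dmd, downstream start, chrX:85048045-85048294: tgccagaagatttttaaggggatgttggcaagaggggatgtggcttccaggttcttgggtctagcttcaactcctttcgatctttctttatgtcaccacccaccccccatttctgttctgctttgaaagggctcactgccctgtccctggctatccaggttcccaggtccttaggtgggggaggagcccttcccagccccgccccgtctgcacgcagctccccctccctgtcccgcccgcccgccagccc

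The window before the muscle start of *Dmd* held a MEF2 match, found in 2.92% of 32851 windows of this length, a CArG match, found in 1.47%, and 2 E-boxes, a motif found in 66.2%. The window before the downstream start held none of the 6 motifs and was 60.0% GC, against 45.2% at the muscle start. M-CAT was found in 12.6% of all windows, GATA in 9.99% and T-box in 11.8%. A match is a description of these letters and no evidence of binding.

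The windows before a RefSeq start of *Sgca*, *Dag1* and *Lama2* are shown because these genes were lower in both CharmeKO pools, all on the minus strand of GRCm38.p6. The *Lama2* window held a CArG match and an E-box, and those of *Sgca* and *Dag1* held an E-box each. The *Lama2* start used, at 27616942, lies inside the gene as annotated in GENCODE M21, whose 5′ end is at 27619758. Its window is therefore not the one before that 5′ end.
Sgca, chr11:94976328-94976577: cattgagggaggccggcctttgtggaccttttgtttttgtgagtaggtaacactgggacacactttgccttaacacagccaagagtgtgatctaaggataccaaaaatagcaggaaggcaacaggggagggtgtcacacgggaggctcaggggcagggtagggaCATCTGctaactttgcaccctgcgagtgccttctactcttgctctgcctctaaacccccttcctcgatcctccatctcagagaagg
Dag1, chr9:108263959-108264208: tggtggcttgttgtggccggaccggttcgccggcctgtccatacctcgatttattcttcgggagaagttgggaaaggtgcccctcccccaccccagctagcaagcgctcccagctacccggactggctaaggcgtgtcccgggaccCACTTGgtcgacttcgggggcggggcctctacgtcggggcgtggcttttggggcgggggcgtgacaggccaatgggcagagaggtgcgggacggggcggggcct
Lama2, chr10:27616943-27617192: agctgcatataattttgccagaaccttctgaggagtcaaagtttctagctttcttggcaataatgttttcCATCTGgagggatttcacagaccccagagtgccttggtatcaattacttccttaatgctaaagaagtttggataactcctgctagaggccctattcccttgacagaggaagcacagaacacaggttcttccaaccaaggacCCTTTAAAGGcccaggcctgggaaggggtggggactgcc

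No motif was matched in the *Sgcb* window, although *Sgcb* too was lower in both CharmeKO pools. The *Utrn* window held 7 E-boxes and that of *Sgcd* held 2 E-boxes and an M-CAT match. These *Utrn* and *Sgcd* windows precede RefSeq starts at 12861735 and 47379325, inside the genes. The 5′ ends annotated in GENCODE M21 are at 12869365 and 47988969, and the windows before those ends were not searched. Windows were found for 7 of the 9 genes, without *Dtna* and *Sntb1*.

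*Utrn* encodes utrophin, the autosomal relative of dystrophin that can take its place in the complex (ENSMUSG00000019820, chromosome 10, minus strand, 12382188 to 12869365). It was at 5.43, 5.44 and 6.59 FPKM in CharmeWT pools and at 6.30 and 4.34 FPKM in CharmeKO pools. CharmeKO pool 1 was within the CharmeWT range and CharmeKO pool 2 below it. This was a log2 fold change of -0.13 ± 0.21 (adjusted p = 0.756).

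Under the membrane, dystrobrevin alpha (*Dtna*, ENSMUSG00000024302) binds dystrophin and the syntrophins. It was at 4.24, 3.70 and 3.48 FPKM in CharmeWT pools and at 6.81 and 3.95 FPKM in CharmeKO pools. Only CharmeKO pool 1 exceeded the CharmeWT range. On average the log2 fold change was 0.50 ± 0.25 (adjusted p = 0.309), and 0.25 after the GC correction (adjusted p = 0.521).

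*Sntb1*, syntrophin beta 1, is an adaptor that brings signalling proteins to dystrophin and dystrobrevin (ENSMUSG00000060429, chromosome 15, minus strand, 55636388 to 55906949). It was at 7.65, 10.1 and 9.61 FPKM in CharmeWT pools and at 13.6 and 5.38 FPKM in CharmeKO pools. As with *Sgcd*, CharmeKO pool 1 was above and CharmeKO pool 2 below every CharmeWT pool. Averaged, these gave a log2 fold change of 0.05 ± 0.34 (adjusted p = 0.948), which the GC correction turned to -0.09 (adjusted p = 0.913).

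**Figure D2:**
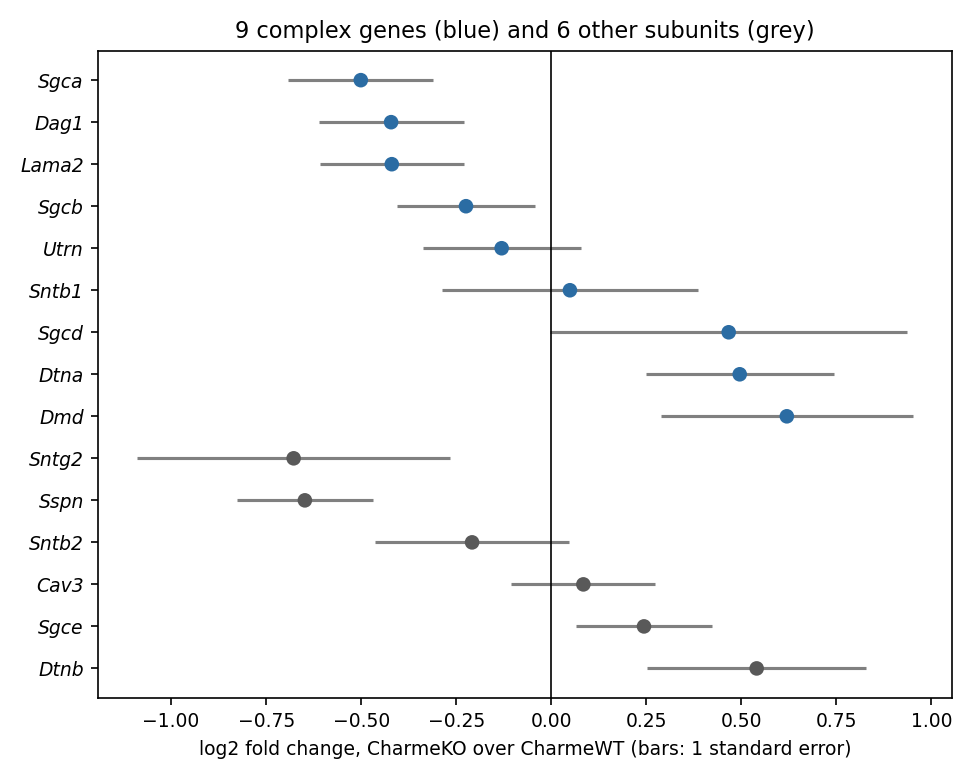
Log2 fold change, CharmeKO over CharmeWT, with 1 standard error from edgeR's quasi-likelihood fit, for the 9 complex genes (blue) and 6 other subunits (grey). Values of the 9 genes run from -0.50 (*Sgca*) to 0.62 (*Dmd*), and none passed an adjusted p of 0.1.

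The 2 CharmeKO pools did not move together in all of the 9 genes. For *Dmd*, *Utrn*, *Sgcd* and *Sntb1* they lay on opposite sides of the CharmeWT mean, 4 of 9, where 35.2% of all genes tested did so. The gap between them was 2.54-fold for *Dmd*, 4.07-fold for *Sgcd* and 2.53-fold for *Sntb1*, exceeded by 5.69%, 1.96% and 5.74% of the genes tested. For *Sgca*, *Sgcb* and *Lama2* CharmeKO pool 1 was 1.26 to 1.29 times CharmeKO pool 2, and for *Dag1* 0.781 times, gaps that 56.8% to 59.7% of all genes exceeded.

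Calls accordingly depended on which CharmeKO pool was kept. Without CharmeKO pool 1, *Sgca* was called (log2 fold change -0.68, adjusted p = 0.0836), 1 of 9, where 4.38% of genes tested were called. In that fit *Dmd* was at -0.20, *Sgcd* at -0.84 and *Sntb1* at -0.76, all with turned sign and none called, and *Dtna* was at 0.06 (adjusted p = 0.940). Without CharmeKO pool 2, 5 of 9 were called, where 31.8% of genes tested were called. These were *Dmd* at 1.13 (adjusted p = 0.00452), *Sgcd* at 1.17 (0.0107), *Dtna* at 0.83 (0.0127), *Dag1* at -0.62 (0.0331) and *Sntb1* at 0.57 (0.0663). In both fits the CharmeKO arm is a lone pool, which is assumed to vary like the CharmeWT pools.

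**Figure D3:**
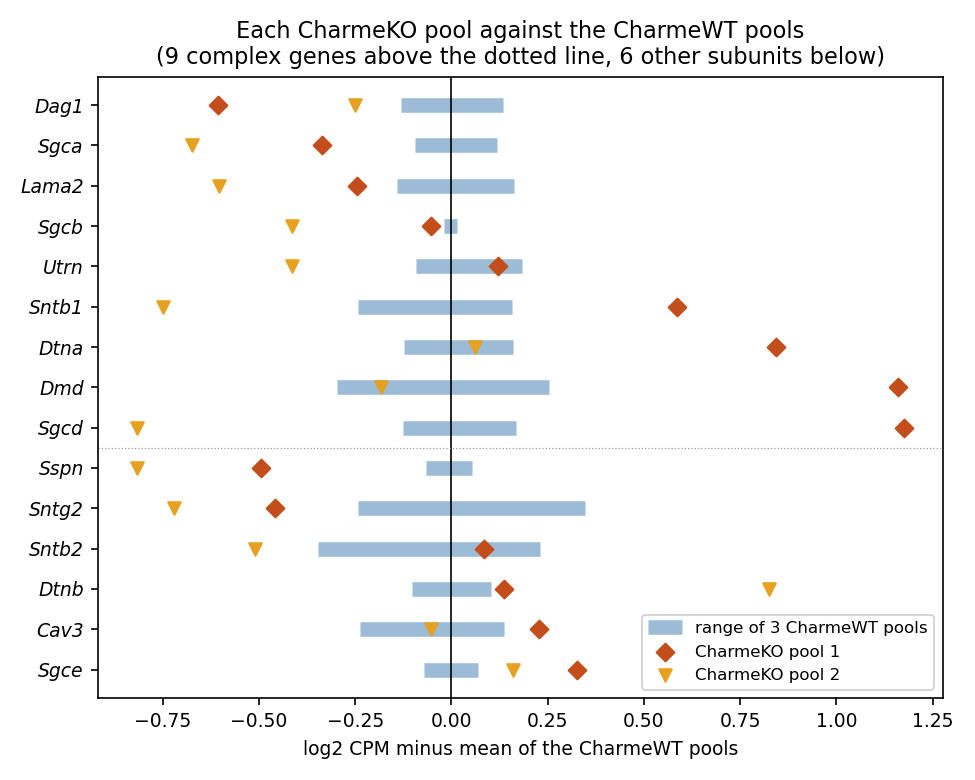
Log2 CPM of each CharmeKO pool minus the mean of the CharmeWT pools, with the range of the 3 CharmeWT pools as a bar, for the 9 complex genes and 6 other subunits. *Sgcd* stands at 1.18 in CharmeKO pool 1 and -0.82 in CharmeKO pool 2, while *Sgca* is below the bar in both, at -0.34 and -0.67.

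The GC content of a transcript moved with the values of CharmeKO pool 1. *Dmd* (41.3% GC), *Sgcd* (41.9%) and *Dtna* (43.3%) were the most AT-rich of the 9 and stood at 1.16, 1.18 and 0.84 in log2 CPM above the CharmeWT mean in that pool. All genes under 42% GC had a median of 0.63 there, and those of 42 to 45% GC a median of 0.44. *Sgcb* at 44.0% GC went against this, at -0.05, as did *Lama2* at 45.7% GC, at -0.24. *Sntb1* at 48.5% GC stood at 0.59, where genes of 48 to 51% GC had a median of -0.02. After the GC correction, CharmeKO pool 1 stood at 0.69 for *Dmd*, 0.73 for *Sgcd* and 0.46 for *Dtna*, each still above every CharmeWT pool. It was also above every CharmeWT pool for *Sntb1*, at 0.44, and *Utrn*, at 0.18. With the same correction, *Dag1*, *Sgca*, *Sgcb* and *Lama2*, 4 of 9, still had both CharmeKO pools below every CharmeWT pool, against 21.2% of all genes after it. For *Sgca* the margin became narrow, with CharmeKO pool 1 at -0.08, where it had been at -0.34, and the lowest CharmeWT pool at -0.06. None of the 9 was called after the correction.

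**Figure D4:**
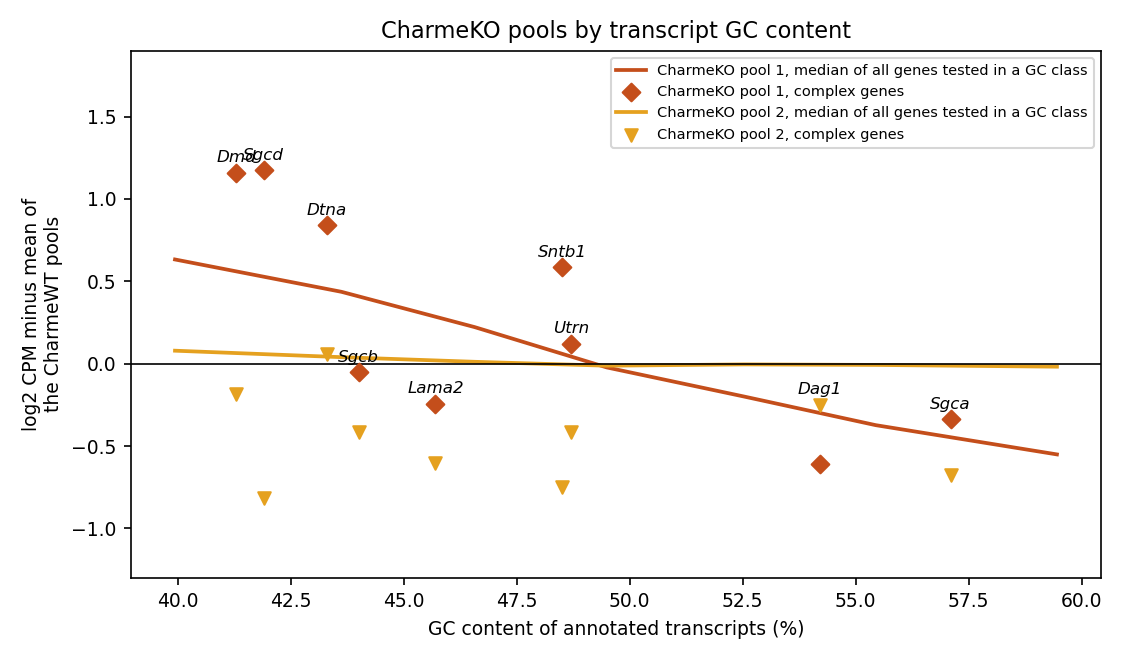
Log2 CPM of each CharmeKO pool minus the mean of the CharmeWT pools against the GC content of annotated transcripts, for the 9 complex genes (points) and as the median of all genes tested in 7 GC classes (lines). In CharmeKO pool 1 the line falls from 0.63 to -0.55 and in CharmeKO pool 2 it stays between 0.08 and -0.02.

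Ratios within a pool compare related subunits that fill like places in the complex. An exact permutation test over the pools has 10 assignments, so its smallest two-sided p is 0.1 and none of the 6 ratios computed, of which 4 are given, could pass 0.05. *Dmd*/*Utrn*, by FPKM, was 0.494, 0.389 and 0.471 in CharmeWT pools and 0.923 and 0.527 in CharmeKO pools. Both CharmeKO ratios were higher than every CharmeWT ratio (exact permutation p = 0.1, 0.3 after adjustment over the 6 ratios). The log2 difference was 0.64, and it was 0.23 without CharmeKO pool 1 and 1.04 without CharmeKO pool 2. *Sgca*/*Sgce*, alpha-sarcoglycan over the epsilon-sarcoglycan found in many tissues, was 9.38, 9.36 and 8.47 in CharmeWT pools and 5.72 and 5.07 in CharmeKO pools. Both CharmeKO ratios were lower than every CharmeWT ratio, a difference of -0.75 in log2 with an SD of 0.08 among CharmeWT and 0.12 among CharmeKO pools (exact permutation p = 0.1, 0.3 adjusted). *Sgce* itself was at 3.25 to 3.58 FPKM in CharmeWT pools and at 4.29 and 3.82 FPKM in CharmeKO pools (log2 fold change 0.24, adjusted p = 0.473). The ratios, and the SD of 0.12 among CharmeKO pools, are without the GC correction. Transcript GC content was 57.1% for *Sgca* and 44.3% for *Sgce*. After the correction, CharmeKO pools 1 and 2 stood at -0.08 and -0.85 from the CharmeWT mean for *Sgca*, in log2 CPM. For *Sgce* they stood at 0.04 and 0.19.

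The other 2 ratios given overlapped between genotypes. *Lama2*/*Lama4*, the alpha chains of muscle and of vascular laminin, differed by -0.30 in log2 (exact permutation p = 0.3, adjusted 0.6). *Dtna*/*Dtnb* was 7.29, 6.81 and 5.55 in CharmeWT pools and 10.6 and 3.80 in CharmeKO pools, a log2 difference of -0.04 (exact permutation p = 0.9, adjusted 0.9). CharmeKO pool 1 was above and CharmeKO pool 2 below every CharmeWT ratio.

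**Figure D5:**
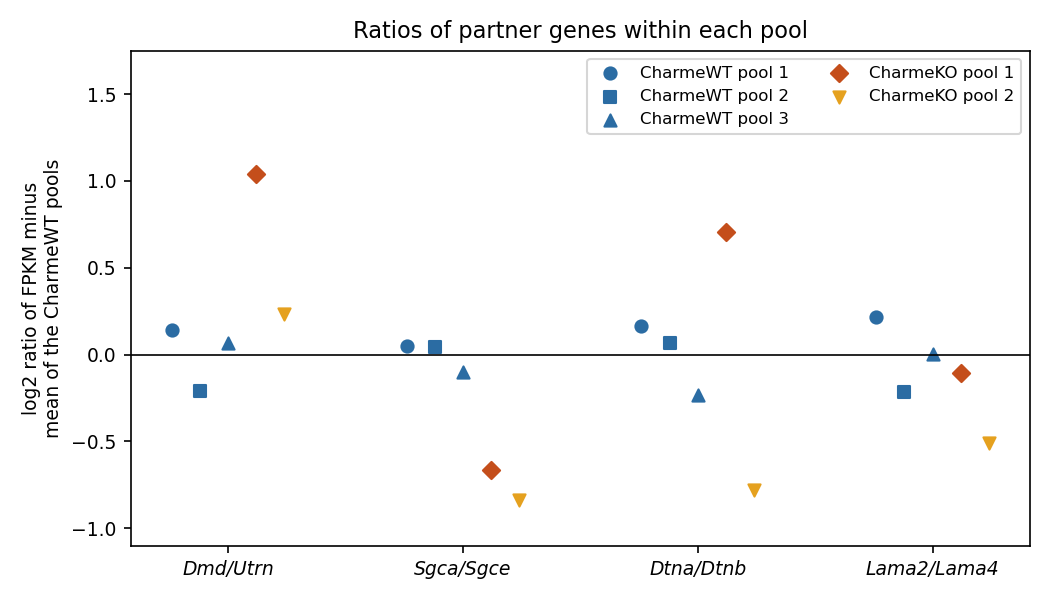
Log2 ratio of FPKM of 4 pairs of partner genes in each pool, minus the mean of the CharmeWT pools. *Sgca*/*Sgce* has both CharmeKO pools below, and *Dmd*/*Utrn* both above, every CharmeWT pool, while in *Dtna*/*Dtnb* the CharmeKO pools lie on opposite sides of them.

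Of 11 other subunits and binding partners of the complex, 8 were tested and none was called, with 1 at an unadjusted p under 0.05. This was *Sspn*, sarcospan, a membrane protein bound to the sarcoglycans. It was at 39.9, 43.3 and 42.1 FPKM in CharmeWT pools and at 29.6 and 23.7 FPKM in CharmeKO pools. Both CharmeKO pools were below every CharmeWT pool. The log2 fold change was -0.65 ± 0.18 (adjusted p = 0.135). *Sspn* was called after the GC correction, by DESeq2 and by the likelihood ratio test. These called 370 of 14880 genes, 7.57% and 6.32% of all genes. With the replicate block, with block and correction together, by the robust test, with other normalizations or filters, or with any CharmeWT pool left out, it was not called. The most abundant of these genes was *Cav3*, the caveolin of muscle, at 133 to 172 FPKM in CharmeWT pools and at 183 and 151 FPKM in CharmeKO pools (log2 fold change 0.08, adjusted p = 0.834). *Dtnb*, dystrobrevin beta, had a log2 fold change of 0.54 (adjusted p = 0.338), with both CharmeKO pools above. *Sgcz*, *Sntg1* and *Nos1* had too few counts to be tested.

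Of 17 tested enzymes that glycosylate dystroglycan, without whose sugars laminin is not bound, none was called, with 1 at an unadjusted p under 0.05 (*Pomk*, -0.62, adjusted p = 0.220). The median log2 fold change was 0.10, and the most abundant, *Pomgnt1*, *B4gat1* and *Dpm3*, were at -0.33, -0.31 and 0.25. Of 16 tested laminin chains and other basement membrane genes, 14 had a log2 fold change below 0 and 7 had both CharmeKO pools below every CharmeWT pool, against 18.2% of all genes, with a median of -0.39. None of them was called, and 4 had an unadjusted p under 0.05. *Hspg2*, perlecan, a ligand of dystroglycan, was at 36.9, 60.3 and 45.9 FPKM in CharmeWT pools and at 20.0 and 29.9 FPKM in CharmeKO pools (log2 fold change -0.93, adjusted p = 0.139). DESeq2, the likelihood ratio test and the fit with the replicate block called it, and the fit with the GC correction did not. *Col4a1* was at -0.43, *Col4a2* at -0.58 and *Lamc1* at -0.45, all with adjusted p above 0.1. *Lamc1* was below every CharmeWT pool in both CharmeKO pools, while *Col4a1* and *Col4a2* overlapped between genotypes. In log2 CPM minus the CharmeWT mean, these collagens stood at -0.92 and -1.07 in CharmeKO pool 1. In CharmeKO pool 2 they stood at -0.04 and -0.20. Over these 16 genes the median in CharmeKO pool 1 was -0.49 and in CharmeKO pool 2 -0.17, in log2 CPM minus the CharmeWT mean. Their median transcript GC content was 53.7%, and after the GC correction these medians were -0.16 and -0.11, with 4 of 16 genes below every CharmeWT pool in both, against 21.2% of all genes. Vessels make much of this matrix, and endothelial markers summed to 1183 to 1430 CPM in CharmeWT pools and to 1039 and 1199 CPM in CharmeKO pools, with 8 of 10 below 0 in log2 fold change. Smooth muscle and pericyte markers summed to 1347 to 2339 CPM in CharmeWT pools and to 1615 and 1812 CPM in CharmeKO pools, with 7 of 10 below 0 and *Cnn1*, a smooth muscle calponin, called higher (log2 fold change 1.04, adjusted p = 0.0521). *Acta2* alone was at 503, 1538 and 540 CPM in CharmeWT pools 1 to 3 and at 949 and 1215 CPM in CharmeKO pools, a large part of each sum. Over these 10 markers the median log2 fold change was -0.52, and 5 had both CharmeKO pools below every CharmeWT pool, against 18.2% of all genes. By edgeR's quasi-likelihood test 4 were lower at an unadjusted p under 0.05, and 1, *Cnn1*, was higher. The part of the endothelial, smooth muscle and pericyte markers in the basement membrane values was not tested.

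The integrins are the other receptors that join laminin to the cytoskeleton. None of the 12 integrin adhesion genes was called, 3 had an unadjusted p under 0.05 (1 higher, 2 lower), and the median was 0.03. *Itgb1* was at 0.42, *Ilk* at 0.20 and *Itgb1bp2* at 0.55, none with an adjusted p under 0.1. For *Itgb1* the genotypes overlapped, with CharmeKO pool 1 at 0.78 and CharmeKO pool 2 at -0.06 in log2 CPM minus the CharmeWT mean. The other 2 had both CharmeKO pools above every CharmeWT pool. Among 12 cytoskeletal linkers, the keratins *Krt8* (5.05, adjusted p = 0.0450) and *Krt18* (4.26, adjusted p = 0.0497) rose. They are keratins of epithelia, and *Krt8* was at 1.01 to 1.99 FPKM in CharmeWT pools, 4.396 in CharmeKO pool 1 and 90.4 in CharmeKO pool 2, the pool with the most salivary gland marker RNA. *Des*, desmin, was at -0.15 and *Actg1* at 0.10. Among 9 tested genes of membrane repair, *Anxa1* (1.85, adjusted p = 0.0497) and *Anxa2* (1.05, adjusted p = 0.0800) rose, both annexins that bind damaged membrane. *Anxa1* was at 12.7 to 15.5 FPKM in CharmeWT pools, 25.8 in CharmeKO pool 1 and 75.1 in CharmeKO pool 2, so like *Krt8* it was highest in CharmeKO pool 2. *Anxa2* was at 51.6 to 71.2 FPKM in CharmeWT pools and at 159 and 97.7 FPKM in CharmeKO pools. None of these 4 genes was called without CharmeWT pool 1 or without CharmeWT pool 3, and *Anxa2* was not called without CharmeWT pool 2 or without CharmeKO pool 1. The fits without CharmeWT pool 1 or 3 called only 2 of 14597 and 0 of 14715 genes tested, so they cannot decide about these genes. *Krt8* and *Krt18* were also not called by the robust test or with the replicate block, and *Anxa1* was not called after the GC correction. With the block and the correction together none of the 4 was called. *Cavin1* was at -0.20 and *Anxa6* at -0.08, and the median of the list was 0.04.

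Among 13415 protein-coding genes outside the list, those with a profile over the 5 pools closest to the mean profile of the 9 were *Fer*, *Hey2*, *Mef2a*, *Dpp8* and *Sptbn1*, with a root mean square difference of 0.02 to 0.04 in log2 CPM. The 9 genes themselves differed from their own mean profile by 0.11 (*Utrn*) to 0.42 (*Sgcd*).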

How the data were processed

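Paired-end reads of 5 stranded polyA libraries were trimmed with cutadapt, aligned to mm10 (GRCm38) with STAR and counted by strand per gene of Ensembl release 87 by the authors. The deposited counts are raw. The authors' FPKM table was used only to derive the gene lengths they used, for 14880 genes, and FPKM were computed from the counts with these. Symbols, positions and transcript GC content came from GENCODE M21.

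The 14880 genes that reached 10 counts in 2 or more pools were tested with edgeR 4.0.16 (R 4.3.3), TMM factors and quasi-likelihood. A gene was called at a Benjamini-Hochberg adjusted p under 0.1 with a mean of at least 1 FPKM in a genotype. Log2 CPM used a prior count of 2. DESeq2 1.42.0, other normalizations and filters, a replicate block, a correction with splines of 4 degrees of freedom on length and GC, and leaving out each pool were alternatives. Scripts were tested on simulated data.

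The 9 genes and the lists were chosen with earlier results of these data known. Named from each list were the 3 most abundant genes by mean FPKM over all 5 pools and those called. *Sspn*, *Pomk*, *Hspg2*, *Cnn1*, *Acta2*, *Xist*, *Malat1*, *Kcnq1ot1*, *Neat1* and *Meg3* were added after their values were seen. Among other subunits, 2 genes and the 2 ratios with them are not reported here. Precision is set by 5 pools and by counting error at 16721055 to 21646378 counts a pool.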

Additional observations from a re-analysis of the deposited data

How the results depend on the processing

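With all 5 pools, 0 of the 9 genes was called under any of the 14 alternatives, where 1 of 9 had an unadjusted p under 0.05 in edgeR's quasi-likelihood test. Leaving out a pool gave 0 to 5, 1 without CharmeKO pool 1 and 5 without CharmeKO pool 2. The median log2 fold change of the 9 was -0.10 with upper-quartile factors, -0.16 without a filter on low counts, -0.088 with the GC correction, -0.055 with the replicate block and -0.16 with both, and -0.42 (without CharmeKO pool 1) to 0.11 (without CharmeKO pool 2). Of the other complex and pathway genes, 4 were called, 7 by DESeq2, 2 by the robust test, 0 with the replicate block and correction together, and 0 to 34 with a pool left out, 34 without CharmeKO pool 2 and 0 without CharmeWT pool 1 or 3. These counts are out of 80 genes, including those with too few counts to be tested. Over all genes tested, 2.05% were called by edgeR's quasi-likelihood test and 7.57% by DESeq2. The 34 rest on a lone CharmeKO pool, and the larger share of all genes called in that fit is given above. *Charme* was not called by the robust test (adjusted p = 0.120), at a threshold of 0.05 (0.0763), or without CharmeWT pool 1 (0.153) or 3 (0.275). Without CharmeWT pool 1 or 3, 2 of 14597 and 0 of 14715 genes tested were called. The lack of calls in those fits therefore cannot decide about *Charme* or the pathway genes.

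Signs turned for *Sntb1* with the replicate block (-0.035), the correction (-0.088), both (-0.16), and without CharmeWT pool 1 (-0.06). Leaving out a pool gave -0.76 to 0.57 for *Sntb1*, -0.20 to 1.13 for *Dmd* and -0.84 to 1.17 for *Sgcd* (the low ends without CharmeKO pool 1, the high ends without CharmeKO pool 2), and -0.42 to 0.11 for *Utrn*, turned without CharmeKO pool 2. With the block and correction together, *Sgcd* was at 0.0082. In log2, *Dmd*/*Utrn* ranged from 0.23 to 1.04 and *Lama2*/*Lama4* from -0.51 (without CharmeKO pool 1) to -0.10 (without CharmeKO pool 2). *Dtna*/*Dtnb* ranged from -0.78 to 0.70, turned without CharmeKO pool 2, without CharmeWT pool 1 (0.05) and with 1 FPKM added (0.17). The causes were not tested. The pairing has 2 shared numbers, with correlations of deviations of 0.14 (pools 1) and 0.08 (pools 2), which does not show that numbers pair the pools. The block changed no call among the 9 genes, and among the pathway genes it called *Hspg2* and did not call *Krt8* and *Krt18*.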
